A study of Mus musculus with 30 samples.

Results

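The transcriptome of HE2 cells was compared between an E14 ESC line lacking Sp3 (Sp3-/-, labelled Sp3KO) and E14 WT cells, with 2 libraries of each genotype. These 4 libraries were taken by their labels from a series of 30, which covers ESC, Flk1+, HE1, HE2 and progenitor cells, each as WT, Sp3-/- and Sp1 ΔDBD/ΔDBD. HE2 cells are one of 3 populations sorted on day 2 of blast culture, which was seeded with Flk1+ cells purified from embryoid bodies, and they carry KIT, CD41 and Tie2 together on the surface. HE1 cells lack CD41 and progenitors lack Tie2. No treatment was applied. Each genotype is a single E14 line, so that a difference between genotypes cannot be told apart from a difference between lines. The methods of the study describe the 2 libraries of a genotype as biological replicates. The p-values measure the spread between replicates within a line and population, pooled over all 30 samples, and not the spread between lines.

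Sp3 is a ubiquitous zinc finger transcription factor that recognises GC boxes and the related GT boxes, often in CpG-rich promoters, and shares these elements with Sp1. In WT ESC of another line, the study reports slightly more distal than promoter sites for Sp3. During blood development, a subset of endothelial cells, the haemogenic endothelium, passes through an endothelial-to-haematopoietic transition in which endothelial genes are switched off and a haematopoietic programme driven by factors such as RUNX1, GATA2, TAL1 and GFI1B is switched on. Cells that are KIT+, Tie2+ and already CD41+ are in the course of this transition.

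Expression was measured as quantile normalised FPKM, and 14525 genes above 1 FPKM in at least 1 of the 30 samples were tested on the log2(FPKM + 0.1) scale with limma. Fold changes on this scale understate the change of low genes. Sequencing depth is unknown. Of the 14685 genes in the table, 784 and 891 were at the lowest value in the WT libraries and 1239 and 1499 in the Sp3-/- libraries. Across tested genes the log2 values correlated at 0.975 between the WT libraries, at 0.979 between the Sp3-/- libraries and at 0.954 to 0.963 between genotypes. WT replicate 1 stood apart in its content of genes of other cell types. The summed level of 31 smooth and cardiac muscle genes was 986 FPKM in this library against 330 in WT replicate 2 and 460 and 413 in the Sp3-/- libraries. For 29 mesenchymal and epithelial-like genes the sums were 415 FPKM against 109, 162 and 141.

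The targeted gene was examined first. Sp3 (ENSMUSG00000027109, mm10 chr2:72936427-72980446, minus strand) was at 37.7 and 30.9 FPKM in the WT libraries and at 4.19 and 3.38 FPKM in the Sp3-/- libraries. The groups did not overlap, and the gene fell by 3.15 on the log2 scale (SE 0.19, limma adjusted p = 1e-08), which is 8.86 times lower between group means. The remaining signal was not 0 and its position within the gene is not known from a value per gene. Sp1, the closest relative, was at 33.6 and 26.3 FPKM in WT and at 28.4 and 28.5 FPKM in Sp3-/-, a log2 fold change of -0.06 (SE 0.17, limma adjusted p = 0.86).

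Promoters are shown for the targeted gene, for a pair of genes that fell (Plk2 and Mdm2) and for 1 that rose (Epor), since Sp3 binds GC and GT boxes. They are examples whose windows lie wholly upstream of the annotated gene. Each sequence is the 250 bases before the RefSeq start site (GRCm38.p6), written along the strand of the gene, with the GC box (GGGCGG) and GT box (GGGTGG) in capitals on either strand. The windows are chr2:72980447-72980696 (minus strand), chr13:110394794-110395043 (plus strand), chr10:117710759-117711008 (minus strand) and chr9:21963577-21963826 (minus strand).
Sp3: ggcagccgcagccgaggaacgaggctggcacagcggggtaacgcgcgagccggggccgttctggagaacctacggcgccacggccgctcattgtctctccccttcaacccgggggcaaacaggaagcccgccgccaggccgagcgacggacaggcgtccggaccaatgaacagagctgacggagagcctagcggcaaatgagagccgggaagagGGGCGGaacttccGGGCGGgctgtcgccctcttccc
Plk2: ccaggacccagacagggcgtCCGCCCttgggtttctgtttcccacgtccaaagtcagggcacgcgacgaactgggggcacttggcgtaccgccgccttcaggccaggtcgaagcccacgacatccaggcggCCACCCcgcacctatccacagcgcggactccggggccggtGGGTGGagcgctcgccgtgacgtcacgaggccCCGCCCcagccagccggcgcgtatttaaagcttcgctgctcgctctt
Mdm2: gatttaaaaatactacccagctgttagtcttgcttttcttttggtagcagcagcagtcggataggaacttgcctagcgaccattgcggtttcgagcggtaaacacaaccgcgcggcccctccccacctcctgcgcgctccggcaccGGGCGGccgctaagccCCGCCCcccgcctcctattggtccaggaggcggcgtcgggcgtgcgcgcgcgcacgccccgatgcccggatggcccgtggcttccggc
Epor: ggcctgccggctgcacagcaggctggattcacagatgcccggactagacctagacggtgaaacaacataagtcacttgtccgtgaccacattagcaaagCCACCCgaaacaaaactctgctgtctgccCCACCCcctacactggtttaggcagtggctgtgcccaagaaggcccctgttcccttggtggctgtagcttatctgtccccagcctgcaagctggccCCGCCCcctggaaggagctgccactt

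A promoter window was found for 11029 of the 14525 tested genes, and 58.2% of these windows held at least 1 GC box and 33.6% at least 1 GT box, overlapping matches included. Among the genes called higher in Sp3-/- HE2 with a window (761), 59.1% held a GC box and 30.4% a GT box. For the genes called lower (788) the shares were 63.7% and 36.5%. A match describes the letters in this window and does not show binding.

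The sort genes were measured in all libraries. Kit, the receptor for stem cell factor, was at 36.9 and 58.5 FPKM in WT and at 31.4 and 24.3 FPKM in Sp3-/- (log2 fold change -0.75, SE 0.34, limma adjusted p = 0.15). Itga2b, which encodes CD41, was at 84.6 and 147 FPKM in WT and at 130 and 134 FPKM in Sp3-/- (log2 fold change 0.24, limma adjusted p = 0.81). Tek, which encodes Tie2, was at 85.1 and 90.2 FPKM in WT and at 57.7 and 67.1 FPKM in Sp3-/- (log2 fold change -0.49, limma adjusted p = 0.30). All 3 were thus well expressed in both genotypes, and none passed the test.

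Of 10 genes that mark haemogenic endothelium, 0 were called by limma in either direction. Pecam1, an endothelial adhesion molecule, came closest, at 145 and 179 FPKM in WT and at 97.8 and 91.3 FPKM in Sp3-/- (log2 fold change -0.77, SE 0.28, limma adjusted p = 0.072). The VE-cadherin gene Cdh5 was at 221 and 231 FPKM in WT and at 165 and 168 FPKM in Sp3-/- (limma adjusted p = 0.36). In both genes the genotypes did not overlap, as was the case, in the lower direction, for 27.3% of all tested genes. Runx1 was split by library rather than by genotype, at 24.6 and 9.80 FPKM in WT and at 24.5 and 8.99 FPKM in Sp3-/- (log2 fold change -0.06, SE 0.70).

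**Figure D1:**
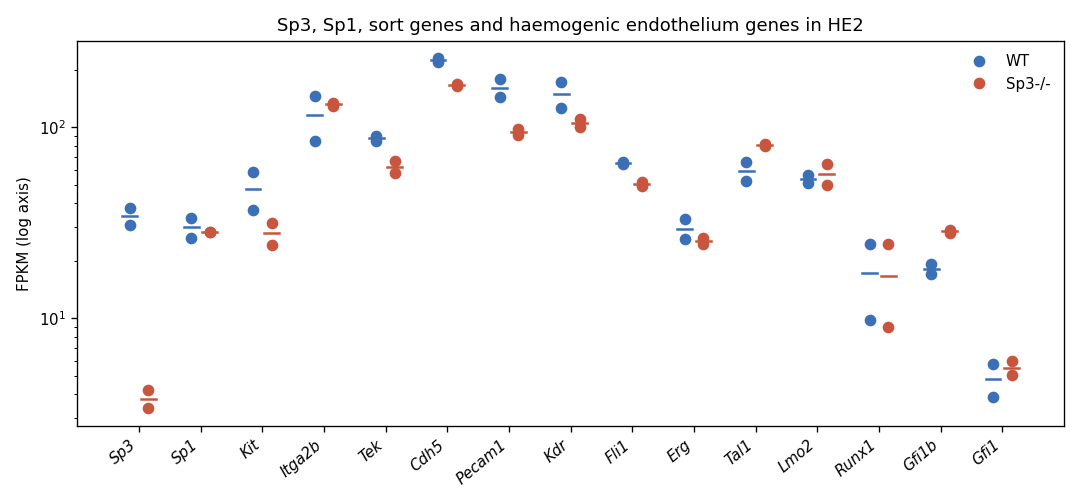
FPKM (log axis) of Sp3, Sp1, the 3 sort genes and the 10 haemogenic endothelium genes in the 2 WT and 2 Sp3-/- HE2 libraries; points are libraries and bars are group means. Sp3 is the one gene shown whose call passed the test (37.7 and 30.9 against 4.19 and 3.38 FPKM), and the Runx1 libraries spread as widely within a genotype as between genotypes.

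In the whole comparison, 1013 genes were higher (6.97% of 14525) and 993 were lower (6.84%) in Sp3-/- HE2 at a limma adjusted p under 0.05, and 338 of the higher and 460 of the lower genes changed by more than 1 on the log2 scale. The median log2 fold change of all tested genes was 0.026. These counts rest on a spread estimated from all 30 samples. When the 6 HE2 samples were fitted alone, 5 genes were higher and 8 lower (together 0.0895%). The counts were 246 and 312 without WT replicate 1, 452 and 570 without Sp3-/- replicate 1, and 285 and 348 without Sp3-/- replicate 2, and 159 higher and 189 lower genes were called without each of the 4 libraries in turn.

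The calls moved with base composition. The median GC content of transcripts was 55.4% in the genes called higher, 45.8% in those called lower and 49.8% in all. Of the fifth of genes with the lowest GC content (29.6% to 43.9%), 29 were higher and 357 lower, and of the fifth with the highest (55.6% to 72.8%), 474 were higher and 64 lower. After a correction of each sample for GC content and length, 639 genes were higher and 1107 lower, so that the share of higher genes among the calls went from 50.5% to 36.6%, and 453 of the 1013 higher and 766 of the 993 lower genes kept their call. This correction covers both GC content and length and is called the GC correction below. The parts of composition and of length in the calls were not tested further. Of the 128 named genes with a call, 116 lost it when the 6 HE2 samples were fitted alone. With the 4 WT and Sp3-/- samples alone, 121 lost it. Among the named genes, 76 calls were lost without WT replicate 1, 35 without WT replicate 2, 48 without Sp3-/- replicate 1 and 69 without Sp3-/- replicate 2.

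**Figure D2:**
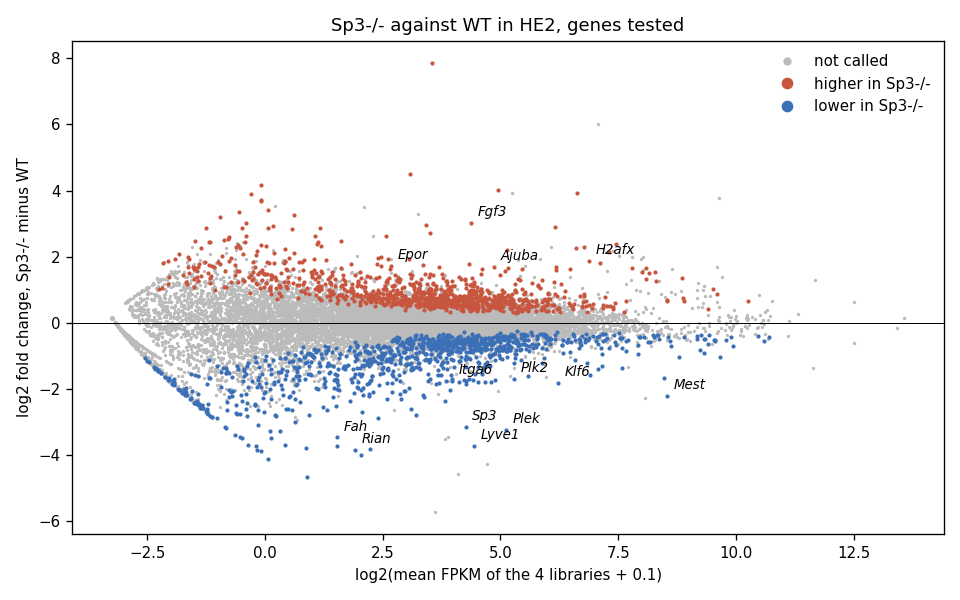
Log2 fold change (Sp3-/- minus WT) against log2 mean level for the 14525 genes tested in HE2, coloured by call at a limma adjusted p under 0.05. The 1013 higher and 993 lower genes include Lyve1 (-3.74), Plek (-3.25) and Sp3 (-3.15) as falls at levels above 30 FPKM in WT, and Fgf3 (3.02) as a rise.

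The 10 largest falls among genes above 3 FPKM included genes of endothelium, platelets and metabolism. Lyve1, a hyaluronan receptor of lymphatic and yolk sac endothelium (chr7:110850607-110863239), was at 47.3 and 33.2 FPKM in WT and at 2.78 and 2.99 FPKM in Sp3-/-. This was 13.5 times lower between means (log2 fold change -3.74, SE 0.31, limma adjusted p = 1.3e-06). Plek, which encodes the platelet protein kinase C substrate pleckstrin (chr11:16971206-17052381), was at 53.6 and 72.4 FPKM against 6.24 and 6.66 FPKM (log2 fold change -3.25, SE 0.39, limma adjusted p = 6.3e-05). Fah, the last enzyme of tyrosine breakdown, was at 6.18 and 4.13 FPKM against 0.511 and 0.255 FPKM (log2 fold change -3.47, SE 0.42, limma adjusted p = 8e-05). In each of these 3 genes the gap between genotypes was far larger than the gap between libraries of one genotype.

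The other large falls were less even between libraries. Gstm5, a glutathione transferase, was at 9.72 and 4.67 FPKM in WT, while 1 Sp3-/- library was at the lowest value and the other at 1.56 FPKM (log2 fold change -4.02). Rian, a noncoding RNA of the imprinted Dlk1-Meg3 region, was at 9.66 and 4.27 FPKM against 0.222 and 0.526 FPKM (log2 fold change -3.86). Spp1, the secreted phosphoprotein osteopontin, was at 1.89 and 4.73 FPKM against 0.341 FPKM and the lowest value (log2 fold change -3.79). The zinc finger gene Zfp991, Fmr1nb and AF357359 were the remaining ones. AF357359 was at 5.75 and 1.28 FPKM in WT and was listed at the lowest value in both Sp3-/- libraries, so no fold is given for it.

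The 10 largest rises included a growth factor gene. Fgf3, which signals through FGF receptors in the early embryo (chr7:144838083-144844436), was at 5.28 and 3.58 FPKM in WT and at 43.3 and 30.1 FPKM in Sp3-/-. This was 8.13 times higher between means (log2 fold change 3.02, SE 0.33, limma adjusted p = 3.3e-05). Scand1, a SCAN domain gene, was at 3.07 and 1.76 FPKM against 18.4 and 19 FPKM (log2 fold change 2.96, SE 0.88, limma adjusted p = 0.032), and its call was lost after the GC correction (log2 fold change 1.72, limma adjusted p = 0.10). Small structured RNAs made up a further part: Scarna3a was at 2.08 and 5.45 FPKM against 42.4 and 73.7 FPKM (log2 fold change 4.01), and the multicopy Rn4.5s was at 5.35 and 25.8 FPKM against 154 and 212 FPKM (log2 fold change 3.93). Snora44 and Scarna3b were of the same kind, the latter not called after the GC correction (log2 fold change 2.20, limma adjusted p = 0.074), and 4930413G21Rik, at 0.551 and 0.333 FPKM against 4.43 and 3.23 FPKM, was the other one without a known copy.

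Genes with near-identical copies made up the rest of the rises, and their values are uncertain because reads can be split between copies. Eif3j2 was listed at the lowest value in both WT libraries and at 23.8 and 22.6 FPKM in Sp3-/-, whereas its copy Eif3j1, also a subunit gene of translation initiation factor 3, was at 31 and 16.9 FPKM in WT and at 0.309 and 0.359 FPKM in Sp3-/-. The sum of both was 31 and 16.9 FPKM in WT and 24.1 and 23 FPKM in Sp3-/-, which overlapped. Dynlt1f, 1 of 4 Dynlt1 copies, was at 0.021 and 1.28 FPKM against 2.82 and 29.1 FPKM, while the sum of the 4 copies was 160 and 178 FPKM against 126 and 116 FPKM. Acat3, whose call was lost with an estimated correlation (limma adjusted p = 0.081), was at 5.03 and 1.57 FPKM against 18.4 and 19.8 FPKM, and together with Acat2 at 77.2 and 71.1 FPKM against 98.7 and 101 FPKM. The Acat3 call was also lost without each of the 4 HE2 libraries in turn.

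In the fit of the 6 HE2 samples alone, 13 genes passed (limma), and 12 of these were also called in the fit of all samples. Beside Sp3, Lyve1 and the Eif3j copies, they were 3 more genes that were higher (H2afx, Ajuba and Snora61, with E130304I02Rik listed at the lowest value in WT and at 1.63 and 1.76 FPKM in Sp3-/-) and the genes Itga6, Plk2, Aplp1, Isoc2b and Gm11110 that were lower. H2afx, the histone variant phosphorylated at DNA breaks, was at 50.6 and 49.5 FPKM in WT and at 191 and 179 FPKM in Sp3-/- (log2 fold change 1.88, SE 0.26, limma adjusted p = 0.0002). Ajuba, a LIM protein of cell junctions, was at 12.7 and 14.9 FPKM against 42.1 and 46.6 FPKM (log2 fold change 1.68, SE 0.18, limma adjusted p = 2.3e-05). In both genes the libraries of one genotype differed by far less than the genotypes.

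On the other side, Itga6, the laminin receptor subunit integrin alpha-6, was at 23.2 and 25.3 FPKM in WT and at 7.62 and 6.63 FPKM in Sp3-/- (log2 fold change -1.76, SE 0.24, limma adjusted p = 0.00024). Plk2, a polo-like kinase gene induced by p53, was at 60.2 and 59.0 FPKM against 17.4 and 19 FPKM (log2 fold change -1.70, SE 0.20, limma adjusted p = 6.2e-05). Aplp1, an amyloid precursor-like gene, was at 1.27 and 1.44 FPKM in WT and was listed at the lowest value in both Sp3-/- libraries, as were Isoc2b (0.984 and 0.806 FPKM in WT) and Gm11110 (0.664 and 0.707 FPKM in WT). Snora61 lost its call after the correction for GC content and length (log2 fold change 0.36, limma adjusted p = 0.23).

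Next, 30 gene lists were examined, each read against 6.97% of all tested genes called higher and 6.84% called lower by limma. Endothelial genes tended to be lower. Of 36 tested, 0 were higher and 5 lower (Lyve1, Clec14a, Cd93, Icam2 and Emcn), 29 had a negative fold change, and the median was -0.42 against 0.03 over all tested genes. With the GC correction 7 were lower and the median was -0.60. In the other populations the list median of Sp3-/- against WT was -0.24 in HE1, -0.08 in progenitors, 0.0 in ESC and 0.78 in Flk1+ cells. For Sp1 ΔDBD/ΔDBD against the same WT libraries in HE2 it was -0.33. Clec14a, an endothelial C-type lectin, was at 6.65 and 5.79 FPKM in WT and at 1.51 and 1.46 FPKM in Sp3-/- (log2 fold change -1.99, limma adjusted p = 0.0061). Cd93, a receptor of endothelial and early haematopoietic cells, was at 36.7 and 40.6 FPKM against 15.2 and 15.9 FPKM (log2 fold change -1.30, limma adjusted p = 0.021). The Cd93 call was lost without each of the 4 libraries in turn. Icam2 lies on chromosome 11, whose genes were lower as a group, and its call was lost once each sample was centred by chromosome (log2 fold change -0.62, limma adjusted p = 0.13), with an estimated correlation (limma adjusted p = 0.050) and without each of the 4 libraries in turn. In bulk RNA, fewer cells of a type and less RNA per cell cannot be told apart.

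Signalling genes around the endothelium went both ways. Of 28 Notch pathway genes, 2 were called higher (Dtx2 and Dtx3) and 2 lower. Dtx2, a ubiquitin ligase of the pathway, had a log2 fold change of 0.57 (limma adjusted p = 0.049, or 0.059 with an estimated correlation), and its call was also lost without each of the 4 libraries in turn. Jag1, a Notch ligand, was at 4.17 and 4.43 FPKM in WT and at 0.884 and 1.18 FPKM in Sp3-/- (log2 fold change -1.97, SE 0.37, limma adjusted p = 0.0023), and Adam10, the protease that cleaves Notch receptors, was at 51.1 and 33.8 FPKM against 26.2 and 23 FPKM (log2 fold change -0.76). After the GC correction 0 Notch genes were higher and 5 lower, and the log2 fold changes of Dtx2 and Dtx3 were 0.41 and 0.51 (limma adjusted p = 0.098 and 0.069). Of 37 BMP and TGF-beta genes, 2 were higher and 4 lower. Bmpr2, a BMP receptor, was at 21 and 17.9 FPKM against 10.7 and 10.9 FPKM (log2 fold change -0.84), and Smurf2, a ubiquitin ligase that acts on SMAD signalling, was at 27.2 and 28.5 FPKM against 16.3 and 18 FPKM (log2 fold change -0.70). Smad1, which transmits BMP signals, was at 20.5 and 18.7 FPKM against 27.2 and 30.3 FPKM (log2 fold change 0.55), a call lost after the GC correction (log2 fold change 0.43, limma adjusted p = 0.051). After it 1 was higher and 5 lower.

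Blood lineage genes were taken by lineage. Of 34 megakaryocyte and platelet genes, 0 were higher and 10 lower, although the median of the list was -0.11 and 17 members had a positive and 17 a negative fold change. Thbs1, the platelet and matrix glycoprotein thrombospondin, was at 47.2 and 44.1 FPKM in WT and at 15.2 and 12 FPKM in Sp3-/- (log2 fold change -1.75, SE 0.40, limma adjusted p = 0.0075). Itga2, the collagen receptor integrin alpha-2, was at 1.75 and 1.16 FPKM against 0.119 and 0.170 FPKM (log2 fold change -2.65, SE 0.48, limma adjusted p = 0.0017), and Rab27b, a GTPase of platelet granules, was at 23.9 and 22.3 FPKM against 10.1 and 8.15 FPKM (log2 fold change -1.34). Plek was the strongest of the 10, and it and Alox12 lie on chromosome 11. After the GC correction 6 of the 34 were lower. Some members, among them Itga2b and Thbs1, are also expressed outside the platelet lineage.

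Of 34 erythroid genes, 5 were higher and 0 lower, 12 had a negative fold change and the median was 0.28. With the GC correction 4 were higher. The list median of Sp3-/- against WT was 0.27 in HE1 but -0.91 in progenitors, and 0.0 in ESC and Flk1+ cells. For Sp1 ΔDBD/ΔDBD against the same WT libraries in HE2 it was 0.21. Neither the erythroid nor the megakaryocyte list held a call in the fit of the 6 HE2 samples alone, and a difference between the lists was not tested. Epor, the erythropoietin receptor (chr9:21958897-21963506), was at 3.34 and 2.41 FPKM in WT and at 11.5 and 7.95 FPKM in Sp3-/- (log2 fold change 1.72, SE 0.40, limma adjusted p = 0.009). Epb42, a protein of the red cell membrane skeleton, was at 1.86 and 1.5 FPKM against 3.41 and 4.03 FPKM (log2 fold change 1.10), and the erythroid spectrin gene Sptb was at 3.33 and 1.39 FPKM against 4.70 and 5.85 FPKM (log2 fold change 1.24), a call lost after the GC correction, where the fold change was 1.04 (limma adjusted p = 0.081). Trim10 and Tspan33 were the others. The Epb42 call was lost without each of the 4 libraries in turn. No globin gene was called by limma: the sum over 11 globin genes was 1014 and 512 FPKM in WT and 511 and 845 FPKM in Sp3-/-, so that the genotypes overlapped.

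Of 31 haem synthesis and iron genes, 5 were higher and 2 lower, and 1 and 3 after the GC correction. Slc11a2, which carries iron out of endosomes, was at 7.39 and 9.23 FPKM in WT and at 13.4 and 12 FPKM in Sp3-/- (log2 fold change 0.61) and kept its call (limma adjusted p = 0.016). Abcb10, a mitochondrial transporter needed for haem synthesis, was at 25.0 and 24.9 FPKM against 41.5 and 41.2 FPKM (log2 fold change 0.73), and the iron-sulphur assembly gene Glrx5 was at 31.3 and 32.9 FPKM against 48.7 and 54.8 FPKM (log2 fold change 0.69), both calls lost after the correction (log2 fold changes 0.56 and 0.52, limma adjusted p = 0.075 and 0.081). Aco1, the iron-responsive RNA-binding aconitase, was at 23.5 and 22.0 FPKM against 13.7 and 15 FPKM (log2 fold change -0.66).

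Myeloid genes had the lowest median of the 30 lists, at -0.86, with 28 of 39 negative, 1 called higher and 4 lower. Alox5ap, which serves leukotriene synthesis, was at 27.0 and 38.8 FPKM in WT and at 12.7 and 9.58 FPKM in Sp3-/- (log2 fold change -1.55, SE 0.43, limma adjusted p = 0.022). The Alox5ap call was lost without each of the 4 libraries in turn. Hcls1, a haematopoietic adaptor, was at 6.09 and 6.13 FPKM against 2.37 and 2.96 FPKM (log2 fold change -1.17, limma adjusted p = 0.038). The Hcls1 call was lost with an estimated correlation (limma adjusted p = 0.050) and without each of the 4 libraries in turn. Rac2 was the gene called higher, at 0.288 and 0.477 FPKM against 1.17 and 1.02 FPKM (log2 fold change 1.33, limma adjusted p = 0.041). Its fold change was 1.17 after the GC correction (limma adjusted p = 0.080), its adjusted p was 0.051 with an estimated correlation, and its call was lost in 9 of 13 alternatives. After the GC correction the list held 0 higher and 5 lower genes. The summed level of the list was 169 and 228 FPKM in WT and 127 and 123 FPKM in Sp3-/-.

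Among 26 haematopoietic transcription factors, 2 were higher and 1 lower, with a median of 0.14. Meis1, a homeobox partner of HOX proteins, was at 25.1 and 20.9 FPKM in WT and at 7.63 and 7.61 FPKM in Sp3-/- (log2 fold change -1.58, SE 0.30, limma adjusted p = 0.0023). It lies on chromosome 11, and its call remained after each sample was centred by chromosome (limma adjusted p = 0.0088). Gata2, a regulator of haematopoietic stem and progenitor cells, was at 9.87 and 15 FPKM against 21.6 and 17.9 FPKM (log2 fold change 0.69), and Ldb1, an adaptor of GATA and LMO2 complexes, was at 44.9 and 60.0 FPKM against 73.6 and 75.1 FPKM (log2 fold change 0.52). Both calls were lost after the GC correction (log2 fold changes 0.30 and 0.16, limma adjusted p = 0.39 and 0.42).

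Within the Sp and Klf family of zinc finger factors, 2 of 23 were higher and 3 lower. Klf6, an immediate early member of the family, was at 96.6 and 136 FPKM in WT and at 32.3 FPKM in both Sp3-/- libraries (log2 fold change -1.83, SE 0.30, limma adjusted p = 0.00086). Klf15 was at 0.125 and 0.137 FPKM against 0.977 and 1.34 FPKM (log2 fold change 2.43, SE 0.39, limma adjusted p = 0.00072), and Klf5 was at 1.29 and 0.706 FPKM against 4.01 and 2.1 FPKM (log2 fold change 1.51). Klf4 and Sp3 itself were the other members called. Of 34 other promoter-binding factors, 8 were higher and 3 lower, against 2 and 0 after the GC correction. Tfap4, an E-box factor, kept its rise, from 7.17 and 7.57 FPKM to 14.3 and 15.8 FPKM (log2 fold change 1.02, limma adjusted p after correction 0.015), whereas Maz, at 37.5 and 54.3 FPKM against 85.3 and 79.3 FPKM (log2 fold change 0.86), was at a log2 fold change of 0.05 after it.

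Cell cycle inhibitors and p53 targets included 6 lower and 2 higher genes of 36 (median -0.12). Besides Plk2, Ccng1, a cyclin induced by p53, was at 181 and 142 FPKM in WT and at 69.3 and 67.6 FPKM in Sp3-/- (log2 fold change -1.23, SE 0.16, limma adjusted p = 0.00017). Mdm2, the ubiquitin ligase of p53, was at 72.4 and 75.5 FPKM against 45.5 and 40.8 FPKM (log2 fold change -0.78, SE 0.15, limma adjusted p = 0.003), and the p53 effector Perp was at 21.6 and 26.8 FPKM against 8.08 and 4.18 FPKM (log2 fold change -2.03, SE 0.45, limma adjusted p = 0.0059). All 4 kept their calls after the GC correction, with 8 lower and 2 higher genes in the list. Ccng1 lies on chromosome 11 and remained called after centring by chromosome (limma adjusted p = 0.0011).

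Of 48 DNA replication and nucleotide synthesis genes, 7 were higher and 1 lower, 35 had a positive fold change and the median was 0.13. Ung, the uracil-DNA glycosylase, was at 9.14 and 11.3 FPKM in WT and at 18.2 and 22.6 FPKM in Sp3-/- (log2 fold change 0.99, SE 0.13, limma adjusted p = 0.00012). Cdt1, which licenses replication origins, was at 30.6 and 43.7 FPKM against 82.6 and 71.1 FPKM (log2 fold change 1.06, SE 0.18, limma adjusted p = 0.0013). The polymerase subunits Pola2 (27.7 and 34.2 against 44.9 and 44.7 FPKM) and Pold1 (19.2 and 25.4 against 38.7 and 39.8 FPKM) were also called higher, Pold1 not after the GC correction (log2 fold change 0.23, limma adjusted p = 0.19). After it the list held 8 higher and 2 lower genes.

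Imprinted genes, expressed from 1 parental allele, were lower more often than higher, with 7 of 43 lower, 1 higher and a median of -0.21. Mest, a hydrolase gene of mesoderm (chr6:30723547-30748465), was at 517 and 700.0 FPKM in WT and at 157 and 108 FPKM in Sp3-/- (log2 fold change -2.21, SE 0.27, limma adjusted p = 9.2e-05). Plagl1, a growth-suppressing zinc finger factor, was at 4.87 and 4.64 FPKM against 0.706 and 0.769 FPKM (log2 fold change -2.54, SE 0.53, limma adjusted p = 0.0045). Phlda2, a placental growth regulator, was called higher at low levels, at 0.158 FPKM and the lowest value in WT and 0.589 and 1.18 FPKM in Sp3-/-. Rian and Meg3, from one noncoding cluster, and Peg3, Peg10 and Inpp5f were the other members lower.

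Clustered histone genes showed the highest median of the 30 lists. Of 69 tested, 18 were higher and 0 lower, 65 had a positive fold change, the median was 1.0, and for 63 genes both Sp3-/- libraries lay above both WT libraries, as they did for 31.8% of all tested genes. The summed level was 19658.2 and 15153.8 FPKM in WT and 31089.1 and 34485.9 FPKM in Sp3-/-. The list was also higher in the other populations of the line, with medians against WT of 2.26 in ESC, 1.31 in Flk1+ cells, 1.33 in HE1 and 0.71 in progenitors. Hist1h3h, a histone H3 gene, was at 151 and 118 FPKM against 382 and 382 FPKM (log2 fold change 1.52), Hist1h2bk, a histone H2B gene, at 531 and 550 FPKM against 906 and 1099.7 FPKM (log2 fold change 0.88), and Hist1h3i at 172 and 139 FPKM against 375 and 395 FPKM (log2 fold change 1.31). The list has a median GC content of 57.9%. After the GC correction its median was 0.68 and 5 genes were higher, and the calls of these 3 genes were lost (log2 fold changes 0.24, 0.44 and 0.08, limma adjusted p = 0.42, 0.056 and 0.80). Most of these mRNAs lack a poly(A) tail and have close copies, so single values are uncertain.

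Small nucleolar and Cajal body RNAs, which guide modification of ribosomal and spliceosomal RNA, were called higher in 24 of 108 genes and lower in 0, with a median of 0.68. Snora52 was at 8.98 and 16.1 FPKM in WT and at 42.7 and 72.5 FPKM in Sp3-/- (log2 fold change 2.20, SE 0.26, limma adjusted p = 6.2e-05). Snora17 was at 32.4 and 35.6 FPKM against 73.7 and 94.1 FPKM (log2 fold change 1.29, or 0.64 and not called after the GC correction), and Scarna17 at 11.4 and 11.8 FPKM against 28.4 and 45.9 FPKM (log2 fold change 1.62). After correction for GC content and length the median of the list was 0.03, with 6 genes higher and 4 lower. The list has a median GC content of 46.5%, against 49.8% in all tested genes. The parts of GC content and of length in this drop were not tested apart. These RNAs are far shorter than mRNAs and many lie within introns of host genes, with which reads may be shared.

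Genes of protein synthesis and turnover were mostly not called. Of 84 cytosolic ribosomal protein genes, 1 was higher (Rps29) and 14 lower, 4 of these on chromosome 11, 36 had a positive fold change and the median was -0.10. Rpl27 was at 766 and 789 FPKM in WT and at 447 and 425 FPKM in Sp3-/- (log2 fold change -0.84, SE 0.11, limma adjusted p = 0.00014), and Rps6, a target of S6 kinase outside chromosome 11, was at 936 and 805 FPKM against 619 and 581 FPKM (log2 fold change -0.53, SE 0.10, limma adjusted p = 0.0017). Among 39 proteasome subunit genes, 0 were higher and 7 lower, 3 of them on chromosome 11, with a median of -0.16. Psmc6 was at 120 and 108 FPKM against 82.7 and 74.7 FPKM (log2 fold change -0.54), and Psmd12 on chromosome 11 was at 117 and 89.0 FPKM against 68.3 and 67.4 FPKM (log2 fold change -0.59), no longer called after centring by chromosome (limma adjusted p = 0.11). Of 83 nuclear respiratory chain genes, 2 were higher and 1 lower, and the median was -0.02. After the GC correction 0 were higher and 8 lower.

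Metabolic and stress lists held few calls. Integrated stress response and amino acid genes had 4 of 37 higher and 0 lower (median 0.26). In this list Slc7a5, the large neutral amino acid transporter, was at 13.3 and 13 FPKM in WT and at 28.7 and 30.6 FPKM in Sp3-/- (log2 fold change 1.17, SE 0.19, limma adjusted p = 0.00076), and Shmt2, the mitochondrial serine hydroxymethyltransferase, was at 28.6 and 29.5 FPKM against 57.0 and 60.9 FPKM (log2 fold change 1.02, SE 0.18, limma adjusted p = 0.0015). Cholesterol and fatty acid genes had 4 of 39 higher and 1 lower, with Srebf2, the main regulator of the pathway, at 24.6 and 32.7 FPKM against 46.3 and 46.8 FPKM (log2 fold change 0.71). Glycolysis and hypoxia genes had 2 of 36 higher and 4 lower. Hif1a was at 54.6 and 52.5 FPKM against 42.0 and 39.6 FPKM (log2 fold change -0.39), a call lost after the GC correction (log2 fold change -0.19, limma adjusted p = 0.16). The peptide hormone gene Adm was at 1.65 and 0.787 FPKM in WT and listed at the lowest value in both Sp3-/- libraries.

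In 40 glutathione and redox genes, 2 were higher and 5 lower. Mgst3, a microsomal glutathione transferase, was at 18.5 and 23.5 FPKM in WT and at 8.80 and 6.78 FPKM in Sp3-/- (log2 fold change -1.42, SE 0.34, limma adjusted p = 0.01), while Gstm2 was at 12.3 and 14.5 FPKM against 33.0 and 25.7 FPKM (log2 fold change 1.12). Gstm2 and Gstm5 belong to one family of similar genes, so reads may have been split between them. Of 30 immediate early genes, 2 were higher and 3 lower. Nfkbiz, an inducible NF-kappaB cofactor, was at 5.24 and 8.78 FPKM against 1.65 and 1.98 FPKM (log2 fold change -1.85, SE 0.28, limma adjusted p = 0.00049), and Srf, at 9.87 and 15.7 FPKM against 21.2 and 22.3 FPKM, changed sign after the GC correction (log2 fold change 0.80 against -0.08). Of 38 interferon and MHC genes, 0 were higher and 1 lower (Ifi35 on chromosome 11, log2 fold change -1.36).

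Polycomb and DNA methylation genes had 6 of 40 higher and 0 lower, against 3 and 1 after the GC correction. Ring1, a ubiquitin ligase of Polycomb complex 1, was at 1.51 and 1.90 FPKM in WT and at 4.46 and 4.27 FPKM in Sp3-/- (log2 fold change 1.31, SE 0.28, limma adjusted p = 0.005), and Kdm2b, which brings a Polycomb complex to CpG islands, was at 17.3 and 20.1 FPKM against 29.8 and 33.0 FPKM (log2 fold change 0.75). Of 22 Hox genes, 3 were higher and 0 lower, and 21 had a positive fold change (median 0.67). Hoxd4 was at 1.88 and 2.87 FPKM against 7.02 and 5.79 FPKM (log2 fold change 1.42), and Hoxd9 was also called higher, though not after the GC correction (log2 fold change 1.76, limma adjusted p = 0.11). The summed level of the Hox list was low, at 25.1 and 33.7 FPKM in WT and 60.7 and 45.1 FPKM in Sp3-/-. In 31 germline genes 0 were higher and 1 lower (Tdrkh, a Tudor domain gene, log2 fold change -1.06, limma adjusted p = 0.040). The Tdrkh call was lost after the GC correction (log2 fold change -0.89, limma adjusted p = 0.065), which left 1 germline gene higher and 0 lower, with a replicate block and without each of the 4 libraries in turn.

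Markers of cells outside the gate were listed as well. Muscle genes had 2 of 31 higher and 0 lower, although the median of the list was -0.19 and 16 members had a negative fold change. Hand2, a mesodermal transcription factor, was at 11.5 and 11 FPKM in WT and at 21 and 40.1 FPKM in Sp3-/- (log2 fold change 1.36, or 0.94 after the GC correction at a limma adjusted p of 0.14), and Nkx2-5, a cardiac factor, was at 0.0665 and 0.0847 FPKM against 2.27 and 1.35 FPKM (log2 fold change 3.40). Mesenchymal and epithelial-like genes had 0 of 29 higher and 1 lower, the N-cadherin gene Cdh2, at 17.7 and 12.7 FPKM against 7.72 and 7.55 FPKM. Pluripotency genes had 3 of 28 higher and 0 lower. Lin28a, an RNA-binding protein of early embryonic cells, was at 44.8 and 38.7 FPKM against 70.2 and 63.5 FPKM (log2 fold change 0.68, or 0.59 after the GC correction at a limma adjusted p of 0.072), Gdf3 reached at most 0.559 FPKM, and Dppa5a was listed at the lowest value in WT and at 1.08 and 1.80 FPKM in Sp3-/-. The summed level of the pluripotency list was 139 and 133 FPKM in WT and 195 and 174 FPKM in Sp3-/-. The part of these cells in the other calls was not tested.

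The GC correction also moved the counts of lists whose corrected values are not given above. The Sp and Klf family then held 3 higher and 3 lower genes, imprinted genes 1 and 6, ribosomal protein genes 0 and 13 and proteasome genes 0 and 9. Cholesterol genes held 2 and 2, integrated stress response genes 2 and 0, glycolysis genes 0 and 5 and redox genes 1 and 6. Immediate early genes held 1 and 4, interferon genes 0 and 2, Hox genes 2 and 0, muscle genes 1 and 1 and pluripotency genes 2 and 0. For mesenchymal genes the counts did not move.

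**Figure D3:**
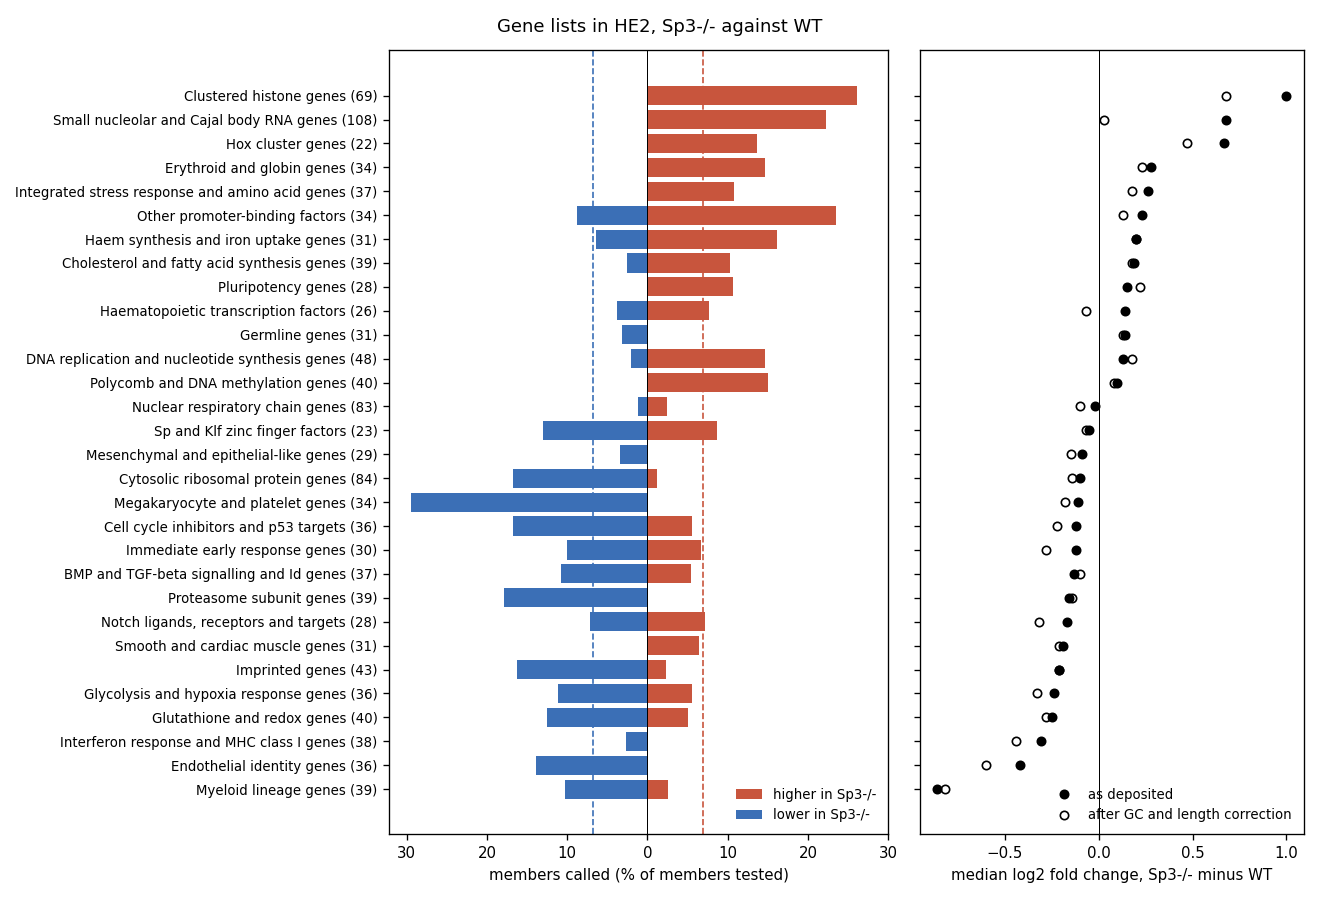
For the 30 gene lists (tested members in brackets), the left panel gives the percentage of members called higher or lower in Sp3-/- HE2, with dashed lines at the 6.97% and 6.84% of all genes, and the right panel gives the median log2 fold change as deposited (filled) and after correction for GC content and length (open). Clustered histone genes sit highest (median 1.0, 0.68 after correction), small nucleolar RNAs drop from 0.68 to 0.03, and myeloid genes sit lowest (-0.86).

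The calls were uneven along the genome. Chromosome 11 held 8.30% of the tested genes but 23% of those called lower. Of its 1205 genes, 228 were lower (18.9%) and 12 higher (0.996%), and the median log2 fold change was -0.26, whereas the medians of the 19 other chromosomes apart from Y lay between -0.07 and 0.14. Elsewhere 5.74% of genes were lower. The level of chromosome 11 genes relative to their mean over all 30 samples was 0.25 in both WT HE2 libraries, -0.04 and -0.02 in the Sp3-/- libraries and -0.11 and -0.08 in the Sp1 ΔDBD/ΔDBD libraries (log2, median over genes), so that WT stood apart from both mutant lines. Along the chromosome, the medians of 10 Mb windows were lowest between 10 and 30 Mb (-0.68 and -0.66) and uneven further on. They were -0.17 from 60 to 70 Mb, -0.36 from 80 to 90 Mb, -0.09 from 90 to 100 Mb and -0.22 from 100 to 110 Mb. The last windows were at -0.09 from 110 to 120 Mb and -0.06 from 120 to 130 Mb, the latter within the range of the other chromosomes. In Sp3-/- cells against WT the chromosome 11 median was -0.16 in ESC, -0.12 in Flk1+ cells, -0.22 in HE1 and -0.27 in progenitors. After each sample was centred by chromosome, 804 genes were higher and 973 lower in HE2, and 1501 of the 2006 calls remained. A property of the lines and an effect of the genotype cannot be told apart here.

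Of 6 tested genes on the Y chromosome, 3 were lower and 0 higher by limma. These were Ddx3y, at 11 and 9.12 FPKM in WT and at 2.68 and 2.82 FPKM in Sp3-/- (log2 fold change -1.83, SE 0.18), Eif2s3y, at 18.3 and 19.5 FPKM against 8.25 and 7.33 FPKM (log2 fold change -1.27, SE 0.13), and Uty, at 8.63 and 5.85 FPKM against 2.36 and 2.16 FPKM (log2 fold change -1.61, SE 0.25). All were lower than in WT but still detected, and these 3 genes were named after their values were seen. The median over the 6 tested Y genes (log2, Sp3-/- against WT) was -1.44 in HE2, -1.59 in ESC and -1.67 in Flk1+ cells. It was -1.24 in HE1 and -1.43 in progenitors, and 0.15 for Sp1 ΔDBD/ΔDBD against WT in HE2. As for chromosome 11, a property of the lines and an effect of the genotype cannot be told apart.

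**Figure D4:**
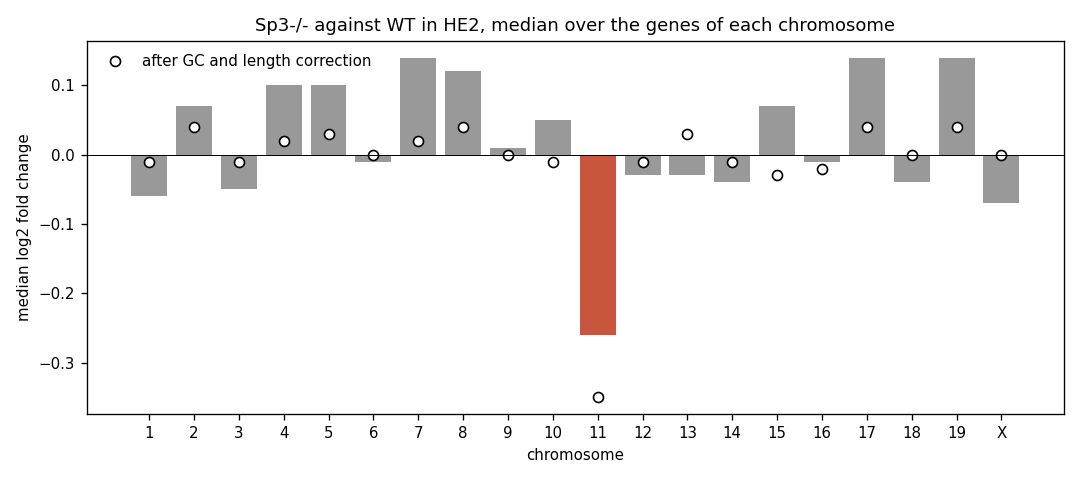
Median log2 fold change (Sp3-/- minus WT in HE2) over the tested genes of each chromosome except Y, as deposited (bars, chromosome 11 in red) and after correction for GC content and length (open points). Chromosome 11 sits at -0.26, or -0.35 after the correction, and every other chromosome lies between -0.07 and 0.14.

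The Sp3-/- line was next compared with WT in the other populations. The genes called higher in HE2 had a median log2 fold change of 0.56 in HE1, 0.47 in progenitors, 0.39 in Flk1+ cells and 0.41 in ESC, and 97.1%, 95.7%, 84.6% and 86.9% of them were higher in sign, against 54.1%, 54.5%, 50.5% and 47.2% of all tested genes. For the genes called lower, the medians were -0.55, -0.58, -0.33 and -0.38, and 94.1%, 95.0%, 75.5% and 83.0% had a negative sign, against 45.9%, 45.5%, 49.4% and 52.7% of all tested genes. The lines are the same in all populations, and HE1, HE2 and progenitors were all sorted on day 2 of blast culture. Whether their same-numbered libraries share a culture is not known. Deviations of same-numbered libraries correlated at 0.382 between HE1 and HE2 and at 0.458 between HE2 and progenitors in WT. In Sp3-/- these values were 0.161 and 0.127. The agreement with HE1 and progenitors may therefore not be independent of the HE2 values.

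A test of the difference itself found 0 genes (0.0%) whose Sp3-/- effect differed between HE2 and HE1 by limma, with 768 genes at an unadjusted p under 0.05 and a smallest adjusted p of 0.089, that of Aplp1. With an estimated correlation between same-numbered samples 37 genes differed. For HE2 against progenitors, 4 genes (0.0275%) differed, with 836 at an unadjusted p under 0.05, and 22 with the estimated correlation. Of the 4, Hbq1a was listed at the lowest value in all HE2 libraries. Lyve1 was the gene among these with an effect in HE2. In WT it was at 8.55 and 9.26 FPKM in HE1, 47.3 and 33.2 FPKM in HE2 and 1.49 and 3.27 FPKM in progenitors, and in Sp3-/- it stayed between 1.18 and 2.99 FPKM in all 3 populations. Its effect was -3.74 in HE2 and -0.58 in progenitors (difference -3.16, SE 0.44, limma adjusted p = 0.004). Rbm18, an RNA-binding motif gene, was at 15.4 and 16.4 FPKM in WT and at 19.4 and 16.0 FPKM in Sp3-/- HE2 but at 12.7 and 12.7 FPKM against 5.23 and 5.92 FPKM in progenitors (difference 1.32, SE 0.18, limma adjusted p = 0.004).

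Several genes called in HE2 were called in other populations too. Mest had log2 fold changes of -2.0 in ESC, -1.93 in HE1 and -1.53 in progenitors, and Ccng1 had -1.02, -1.31 and -1.22 in the same order (limma adjusted p at most 0.0022 in each case). H2afx was higher in all 3 (1.65, 1.21 and 0.89). Fgf3 had fold changes of 3.43 in HE1 and 2.26 in progenitors but 0.49 in ESC (limma adjusted p = 0.40), and Plk2 had -1.74, -1.23 and -0.39 in HE1, progenitors and ESC (limma adjusted p = 0.23 in ESC). Plek was at -0.86 in HE1 (limma adjusted p = 0.16) and at -2.17 in progenitors (limma adjusted p = 0.0022), and the difference between HE2 and HE1 did not pass (-2.39, SE 0.55, limma adjusted p = 0.26).

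**Figure D5:**
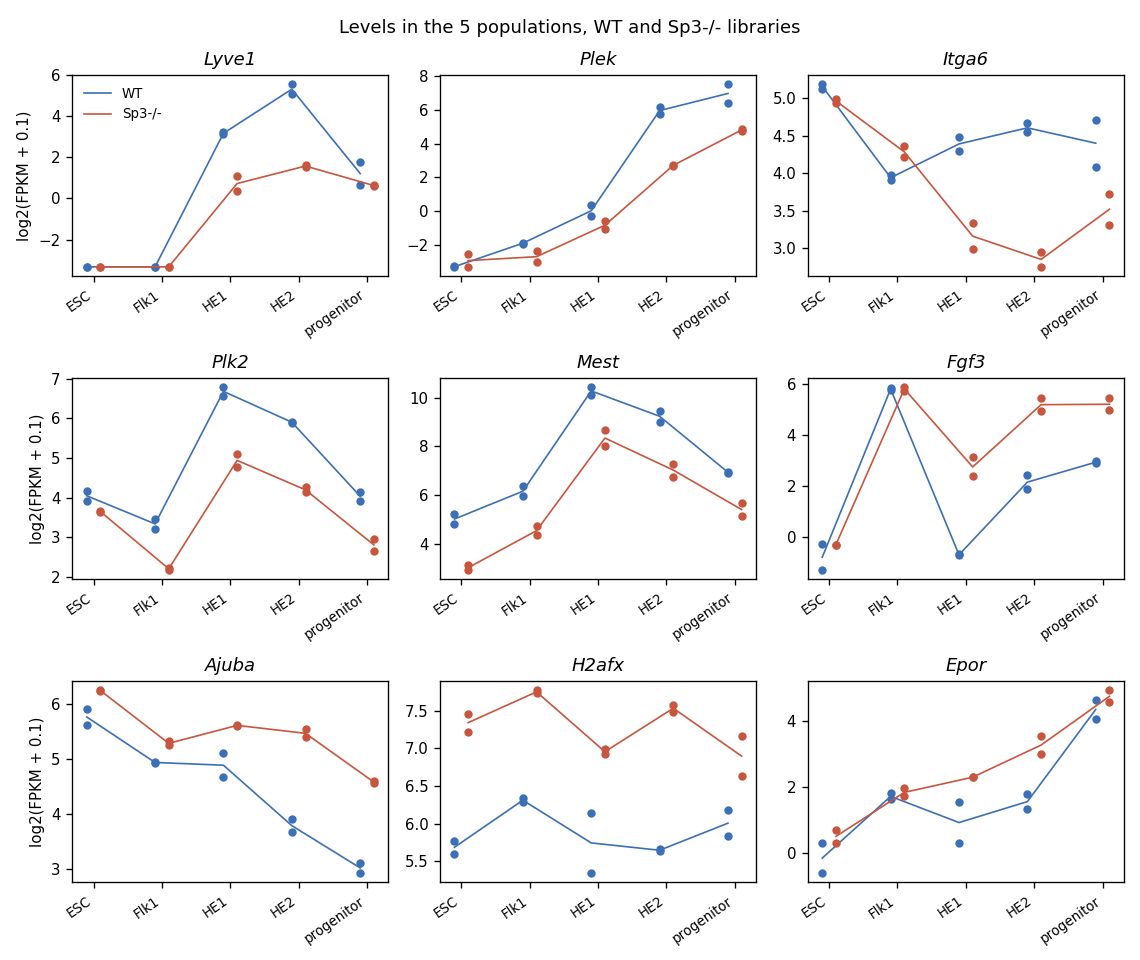
log2(FPKM + 0.1) of 9 genes in the 5 populations, with points for the 2 WT (blue) and 2 Sp3-/- (red) libraries and lines through the group means. Lyve1 rises to 47.3 and 33.2 FPKM in WT HE2 and stays below 3 FPKM in Sp3-/-, Mest and H2afx are apart in all populations, and Epor is higher in Sp3-/- in HE2 (3.34 and 2.41 against 11.5 and 7.95 FPKM) and in HE1 (log2 fold change 1.38).

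Finally, Sp3-/- HE2 cells were compared with HE2 cells of the Sp1 ΔDBD/ΔDBD line, in which Sp1 lacks its DNA-binding domain. Between the 2 mutants, 1077 genes were higher (7.41%) and 1228 lower (8.45%) in Sp3-/-, and 175 differed when the 6 HE2 samples were fitted alone (limma). The genes named for the largest differences were at or near the lowest value in one line. Mgmt, which repairs alkylated guanine, was at 9.19 and 10.7 FPKM in Sp3-/- and at 16.5 and 13.7 FPKM in WT, but was listed at the lowest value in both Sp1 ΔDBD/ΔDBD libraries, and so was Gm5148, at 63.1 and 60.2 FPKM in Sp3-/-. Usp26, an X-linked ubiquitin protease, was at 12.4 and 14.3 FPKM in Sp1 ΔDBD/ΔDBD, at 1.11 and 0.209 FPKM in WT and listed at the lowest value in Sp3-/-. Trap1a was at 42.4 and 11 FPKM in Sp1 ΔDBD/ΔDBD and at 0.363 FPKM and the lowest value in Sp3-/-.

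The groups described above compared as follows between the mutants. Sp3 was lower in Sp3-/- by a log2 fold change of -3.63 (SE 0.19, limma adjusted p = 3.8e-10). Lyve1, at 3.59 and 2.87 FPKM in Sp1 ΔDBD/ΔDBD, did not pass between the mutants (log2 difference -0.15, 95% interval -0.80 to 0.50, limma adjusted p = 0.81). Plek (-1.79), Itga6 (-1.44), Plk2 (-1.0), Ccng1 (-1.01), Mdm2 (-0.64) and Mest (-2.58) were lower in Sp3-/- than in Sp1 ΔDBD/ΔDBD, and H2afx (1.41), Ajuba (0.89), Fgf3 (1.79), Epor (1.55) and Klf15 (2.61) were higher, all with limma adjusted p of at most 0.013. Fah was higher in Sp3-/- than in Sp1 ΔDBD/ΔDBD (1.62, SE 0.42, limma adjusted p = 0.013), although it was lower than WT in both lines. Against WT, Sp1 ΔDBD/ΔDBD changed in the same direction as Sp3-/- in Fah (-5.09), Lyve1 (-3.58), Plek (-1.46) and Fgf3 (1.24). Their limma adjusted p was at most 0.024, whereas Klf15 was at -0.18 (limma adjusted p = 0.85). Both mutants were set against the same 2 WT libraries, so a shared direction against WT is not independent agreement. Of the 69 clustered histone genes, 34 were higher in Sp3-/- than in Sp1 ΔDBD/ΔDBD and 0 lower, with a median of 1.38, while of the 36 endothelial genes 2 were higher and 2 lower.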

How the data were processed

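HE2 cells of E14 WT and Sp3-/- lines were profiled by total RNA sequencing (2 libraries each, 4 of 30 in the series). The authors trimmed reads, aligned them to mm10 with HISAT2 2.1.0, estimated FPKM per gene with StringTie 1.3.3, dropped genes that never exceeded 1 FPKM and then quantile normalised the 30 samples together. The deposited values are these FPKM, 1 column per library. No counts are given, so depth is unknown and values carry no counting interval. Quantile normalisation forces equal distributions, which hides any global change in RNA content.

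Groups follow the labels. Values were tested as log2(FPKM + 0.1) with limma 3.58.1 in R 4.3.3 (means of 15 groups over 30 samples, trended moderation, Benjamini-Hochberg adjustment over 14525 genes, threshold 0.05). With 2 against 2 libraries an exact permutation test cannot go below 0.333, so none was used. Group fold changes are ratios of mean FPKM + 0.1. A gene at the smallest value of a library is called listed at the lowest value. Coordinates, GC content and length are from GENCODE M21 (mm10), matched by symbol for 14559 of 14685 genes, and promoters from RefSeq GRCm38.p6. The fit was tested on simulated data with independent noise. These data held no GC trend, chromosome shift or correlation between libraries, so the test could not check the calls for them.

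The genes named are the targeted gene, Sp1, the sort and haemogenic endothelium genes, the 10 largest rises and falls above 3 FPKM without overlap, up to 4 called genes per list, those called in HE2 alone and the 2 largest differences each way from other groups. Other genes were named after their values were seen. Members, lists and rules were chosen with earlier results of these data known. Alternatives were another pseudocount, filters, scaling, GC content and length correction (lowess), fits of HE2 alone, an estimated correlation, a replicate block, a fold rule and leaving out libraries. Centring each sample by chromosome was added after the data were seen. Some members of the lists are counted but not reported by name here.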

Additional observations from a re-analysis of the deposited data

Results flagged for a closer look

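The effect of Sp3 loss differed for 4 genes between HE2 and progenitors by the test of the difference itself (limma, HE2 minus progenitors on the log2 scale). Lyve1 had a difference of -3.16 (SE 0.44, limma adjusted p = 0.004), with an effect of -3.74 in HE2 and -0.58 in progenitors. Rbm18 had a difference of 1.32 (SE 0.18, limma adjusted p = 0.004), with 0.15 in HE2 and -1.18 in progenitors. Batf3, a transcription factor of dendritic cells, had a difference of 3.23 (SE 0.55, limma adjusted p = 0.039). It was at 1.45 and 2.68 FPKM in WT and 1.66 and 1.14 FPKM in Sp3-/- HE2, and at 1.19 and 1.67 FPKM in WT progenitors but listed at the lowest value in Sp3-/- progenitors. Hbq1a, a theta globin gene, had a difference of 4.28 (SE 0.59, limma adjusted p = 0.004). It was listed at the lowest value in all 4 HE2 libraries, was at 2.05 and 1.78 FPKM in WT progenitors and was at the lowest value in Sp3-/- progenitors. Hbq1a thus has no measurable effect in HE2, and its difference restates its change in progenitors. Batf3 and Hbq1a were named after their values were seen. With 2 libraries per group, no single library could be tested as an outlier.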

How the results depend on the processing

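Sp3 itself kept its direction and its call under all alternatives (log2 fold change -3.30 to -3.00 over the leave-one-out fits). The 1013 higher and 993 lower genes became 5 and 8 with the 6 HE2 samples alone and 4 and 5 with the 4 alone, 639 higher genes with the GC content and length correction, and 269 and 379 by the fold rule without a test. Leaving out 1 library gave 246 to 1027 higher and 312 to 852 lower genes. The cause of the GC dependence was not tested. The spread of 4 or 6 samples has fewer degrees of freedom. The 0 genes that differed between HE2 and HE1 became 8 with a pseudocount of 1, 37 with an estimated correlation, 1 with the GC correction and 0 to 6 without 1 library. The 4 that differed from progenitors became 11 with a pseudocount of 1, 22 with an estimated correlation and 2 with a filter on the late populations, and 3 to 32 without 1 library, the highest without WT progenitor replicate 2 and 16 without Sp3-/- HE2 replicate 1. The 2305 genes that differed from Sp1 ΔDBD/ΔDBD became 175 with HE2 alone, 1521 with the GC correction and 865 to 2367 without 1 library (865 and 1447 without Sp3-/- replicates 2 and 1, 983 without Sp1 ΔDBD/ΔDBD replicate 2). Under the GC correction 17 called genes changed sign. Among the named genes the values that changed sign were Sp1 (0.14 with the GC correction, -0.24 to 0.11 without 1 HE2 library), Itga2b (-0.15 and -0.16 to 0.64), Srf (-0.08), Hist1h2bn (-0.23), Cyc1 (-0.02) and Gm5148 (0.04, and -0.06 to 0.01 without 1 HE2 library). Deviations of same-numbered libraries correlated at 0.114 between WT and Sp3-/- HE2 and at -0.0834 to 0.458 over 7 pairs of groups (10052 genes), highest between WT HE2 and WT progenitors. With only 2 numbers and no shared source in the labels, numbers were not treated as pairs. With a replicate block the counts were 1199 higher and 1225 lower, 0 and 5 for the population differences and 2634 against Sp1 ΔDBD/ΔDBD, and Sp3 was at -3.15. Depth is unknown, so values near 0 have no known precision.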
